A study of Mus musculus with 18 samples.

Results

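Zfp429, Zfp458, Zfp459, Kif27, Cap2 and AK157302 are 6 genes of mouse chromosome 13 whose RNA differed between hindlimb buds of embryos without Pitx1 and wild type hindlimb buds, 6 of the 14686 genes listed in at least 1 of the tables. They were chosen for that difference, at both stages studied, e11.0 and e11.5 (e, embryonic day), so their values in the null comparisons are a description and carry no test. Pitx1, the homeodomain transcription factor that gives the hindlimb its identity, lies on the same chromosome. All 6 genes are listed in both null tables, and 5 are listed in the table of CD1 embryos, where AK157302 is not listed. Every listed gene exceeds 0.5 CPM in at least 3 libraries. The absence of AK157302 from the CD1 table may thus stand for a low level, which was not tested.

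RNA sequencing was done on limb buds of 6 groups with 3 libraries each. In one table e10.5 forelimbs are set against e11.0 hindlimbs, both from wild type embryos of the outbred CD1 stock. The other tables set Pitx1 null against wild type hindlimbs, one at e11.0 and one at e11.5. The labels give BALB/c, an inbred strain, for wild type and null embryos alike, and carry no further allele, agent or treatment. They do not say in which strain the null allele was made or how often the line was crossed, so loss of Pitx1 and strain variants linked to the null allele on chromosome 13 cannot be told apart in any result below. The origin of the replicates (litter, pool) is not labelled either, and p-values speak only of the spread between these libraries, which may be technical. Libraries up to e11.0 were ribosome-depleted and stranded. Those at e11.5 were enriched for mRNA, and their replicate 3, from another sequencing run, was unstranded.

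Zfp429, Zfp458 and Zfp459 encode zinc finger proteins of the KRAB type, the largest family of DNA-binding repressors in mammals. The KRAB domain recruits the corepressor TRIM28 and, through it, the histone methyltransferase SETDB1, and the zinc fingers choose the DNA sites. The genes lie in clusters that grew by tandem duplication, and the cluster on mouse chromosome 13 is best known for Rsl1 and Rsl2, repressors of male-specific genes in the liver. Kif27 is a kinesin related, with Kif7, to the Hedgehog regulator Costal2 of flies, and Cap2 is a cyclase-associated protein that helps to recycle actin monomers and is best known in striated muscle.

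In GRCm38 coordinates, Zfp458 lies at chr13:67254918-67278466, Zfp429 at chr13:67387905-67399819 and Zfp459 at chr13:67405709-67421418, all on the minus strand. RefSeq gives Rsl2 as a synonym of Zfp429, Rslcan-7 of Zfp458 and Rslcan-14 of Zfp459. Kif27 lies at chr13:58287502-58359122 on the minus strand and Cap2 at chr13:46501848-46650281 on the plus strand. AK157302 lies at chr13:21495223-21497146 on the plus strand and is called protein coding by GENCODE and a pseudogene by RefSeq. The start of Kif27 is 2.52 Mb from that of Pitx1, the start of Cap2 9.33 Mb on the other side, the 3 zinc finger genes 11.4 to 11.6 Mb and AK157302 34.3 Mb.

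Read assignment differs among the 6 genes because some have close copies. The transcript AK157302-201 was 98.96% identical to Isca1-201, with 20 mismatches and no gap over 1914 aligned bases. Isca1, which encodes a mitochondrial factor for assembling iron-sulfur clusters, lies at chr13:59755409-59769810 on the minus strand. AK157302-201 has 1 exon and Isca1-201 has 4. The first 150 bases of the AK157302 coding sequence (chr13:21495306-21495455, plus strand) and of the Isca1 coding sequence (4 exons in all, within chr13:59758981-59769704, minus strand) are shown because they hold both coding mismatches, in capitals. Counted from 1 at the first coding base, with the AK157302 base first, these are T31C and C36T.
AK157302: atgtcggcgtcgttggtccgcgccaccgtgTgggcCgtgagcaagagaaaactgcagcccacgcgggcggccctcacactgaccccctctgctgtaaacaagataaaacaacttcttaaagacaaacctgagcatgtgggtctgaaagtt
Isca1: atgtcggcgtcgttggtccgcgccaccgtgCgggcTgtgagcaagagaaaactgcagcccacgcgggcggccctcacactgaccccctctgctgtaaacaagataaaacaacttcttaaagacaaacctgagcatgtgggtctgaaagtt
Of the 50-base stretches of the annotated AK157302 transcripts, 66.0% also occur in an Isca1 transcript. Whether the authors' counting kept or split reads that fit both is not stated in the sources used here, and the values of both genes are uncertain.

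Among the zinc finger genes, Zfp429 shares most with its neighbours. Of its 50-base stretches, 25.0% occur in another gene, 18.4% in Rsl1 and 13.3% in Zfp456. The share was 2.29% for Zfp458 and 5.34% for Zfp459, and 0 for Kif27 and Cap2. Zfp429-201 and Rsl1-201 were 94.3% identical over 2056 aligned bases, with a longest identical run of 163. A stretch of 120 coding bases, from base 449 to base 568 of the Zfp429 coding sequence, is shown. A read lying wholly within it fits Zfp429 and Rsl1 alike. The same letters stand at chr13:67390756-67390875 in Zfp429 (minus strand) and at chr13:67181938-67182057 in Rsl1 (plus strand). No letter differs, so none is in capitals.
Zfp429 and Rsl1: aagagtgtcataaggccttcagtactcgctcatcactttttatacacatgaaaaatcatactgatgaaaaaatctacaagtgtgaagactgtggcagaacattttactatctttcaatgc
A non-coding gene, Gm48900, overlaps Zfp429 and Zfp459 on the opposite strand and is listed in no table. Whether counting used strand was not given in the sources used here.

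The label of the null embryos was checked on Pitx1 itself, which fell from 124 ± 10.9 CPM (read counts scaled to a fixed library total, mean ± SD, n = 3) in wild type to 21.2 ± 1.82 at e11.0 and from 338 ± 23.7 to 79.8 ± 8.31 at e11.5, with limma adjusted p = 3.12e-07 and 1.87e-07. Limb mesenchyme markers, 12 of 12, were listed in each table. Of these, 5 were called lower in null at e11.0 (list median -0.18 on the log2 scale; 1 to 6 without 1 library) and 5 higher at e11.5 (median 0.15; 4 to 6). Markers of other cells in the bud were called too. The muscle precursor list had 5 of its 9 genes listed at e11.0, of which 4 were lower in null, and 9 of 9 lower at e11.5, where its summed level was 195 to 233 CPM in wild type against 117 to 149 CPM in null libraries. At e11.0 the muscle sum was 118 to 130 CPM in wild type against 91.5 to 98.4 CPM in null. Without 1 library, 1 to 5 muscle genes were called lower at e11.0 and 6 to 9 at e11.5. Of 12 endothelial markers, 8 were lower at e11.0 (summed level 228 to 315 against 144 to 241 CPM) and 2 at e11.5 (462 to 507 against 407 to 477 CPM). The count at e11.0 fell to 0 when replicate 3 of either group or the first wild type library was left out, was 1 without null replicate 2, and 4 under the median-ratio scaling. At e11.5 it was 0 under that scaling and in 5 of 6 fits without 1 library, all but the one without null replicate 1. Of 14 surface ectoderm markers, 6 were higher at e11.0 (402 to 960 against 532 to 1168 CPM) and 2 at e11.5 (364 to 415 against 420 to 510 CPM). The count at e11.0 ran from 1 to 13 without 1 library, 13 without wild type replicate 2, 2 without null replicate 1 and 1 in the other 4 fits. At e11.5 it ran from 1 to 4 and was 6 under either other scaling. Without the run term none of these markers was called. Their part in the values of the 6 genes was not tested. In whole limb buds, fewer cells of a type and less RNA per cell cannot be told apart.

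Zfp429 was the zinc finger gene with the deepest difference. At e11.0 its level was 5.35, 5.52 and 6.86 CPM in wild type replicates 1 to 3 and 0.372, 0.838 and 0.725 CPM in the null ones. At e11.5 it was 4.14, 3.29 and 2.33 CPM in wild type against 0.727, 0.185 and 0.709 CPM in null. The groups did not overlap at either stage, and each null library was below 1 CPM. The null mean was 10.9% of the wild type mean at e11.0 and 16.6% at e11.5. On the log2(CPM + 1) scale, which understates changes of low genes, the difference was -2.08 ± 0.14 (SE) at e11.0 and -1.46 ± 0.19 at e11.5. At these levels the null values rest on 7 to 38 implied reads per library. Without null replicate 2 the e11.5 difference was -1.24, the nearest to 0 of the leave-one-out fits.

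Zfp458, a zinc finger gene about which less is known, was higher than Zfp429 in CPM but fell by less. At e11.0 it stood at 10.6, 12.9 and 10.2 CPM in wild type against 6.002, 6.01 and 5.30 CPM in null, and at e11.5 at 4.70, 3.69 and 3.37 CPM against 2.05, 1.85 and 1.57 CPM. Every null library was below every wild type library of its stage. The null means were 51.3% and 46.5% of wild type, and the log2 differences -0.85 ± 0.11 and -0.80 ± 0.10.

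Zfp459, the neighbour of Zfp429 at a gap of 5.89 kb, had wild type levels of 9.10, 9.61 and 6.04 CPM and null levels of 5.10, 4.39 and 4.60 CPM at e11.0. At e11.5 they were 5.32, 4.82 and 3.73 CPM in wild type against 2.28, 2.30 and 2.63 CPM in null. The groups did not overlap, but wild type replicate 3 was nearest to the null libraries at both stages. The null means were 56.9% and 52.03% of wild type, with log2 differences of -0.68 ± 0.13 and -0.71 ± 0.12.

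AK157302 was close to absent in the null libraries. Wild type replicates 1 to 3 held 5.60, 5.35 and 3.66 CPM at e11.0 and 4.08, 5.25 and 4.35 CPM at e11.5. Null libraries held 0, 0.0493 and 0.272 CPM at e11.0 and 0.0331, 0.106 and 0.0560 CPM at e11.5. These null values stand for 0, 1 and 12 implied reads and for 1, 4 and 3. In the library with 0 reads a level of up to 0.159 CPM (3 reads) is allowed by counting error alone. The wild type libraries held 93 to 231 implied reads, so the groups were far apart. The null mean was 2.20% of wild type at e11.0 and 1.42% at e11.5, and the log2 differences were -2.40 ± 0.16 and -2.38 ± 0.11.

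Isca1, the close copy, moved the other way. Its level was 29.5 ± 5.39 CPM in wild type against 35.5 ± 4.31 CPM in null at e11.0 (log2 difference 0.27 ± 0.08, limma adjusted p = 0.0495) and 27.1 ± 2.74 against 33.0 ± 3.65 CPM at e11.5 (0.28 ± 0.06, adjusted p = 0.0230). The call was lost in 5 of 6 fits that left out 1 library at e11.0, all but the one without wild type replicate 2. At e11.5 it was lost in 4 of 6, held without wild type replicate 2 and without null replicate 1. In CPM, AK157302 was lower in null by 4.77 at e11.0 and 4.49 at e11.5, while Isca1 was higher by 5.94 and 5.95.

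**Figure D1:**
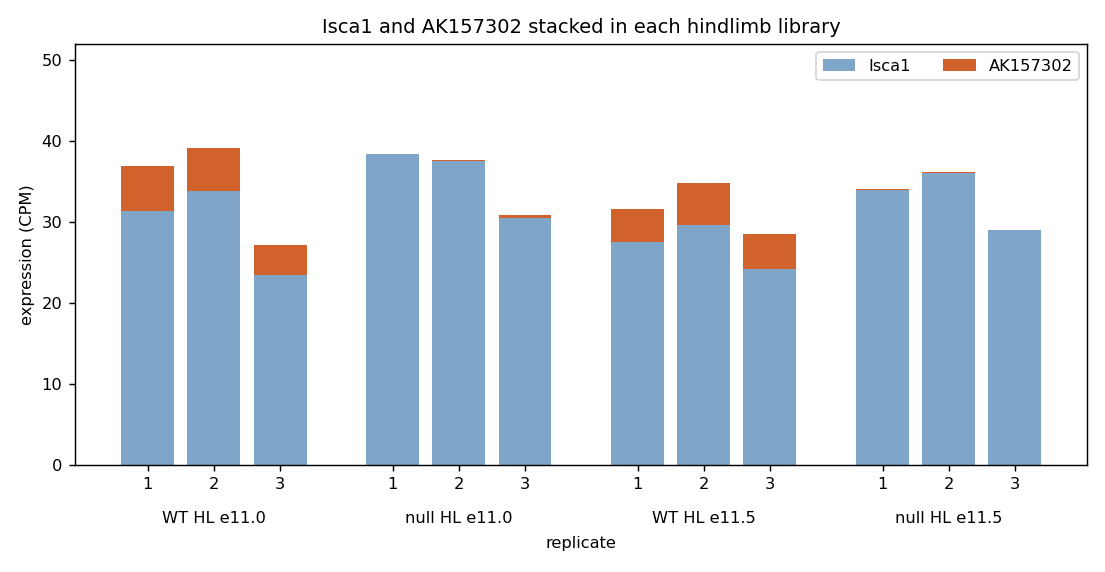
Expression in CPM of Isca1 (blue) and AK157302 (orange), stacked, in each of the 12 BALB/c hindlimb libraries, with the replicate number on the horizontal axis. AK157302 made up 12.9% to 15.2% of the stack in wild type and at most 0.882% in null libraries, while the whole stack ran from 27.2 to 39.2 CPM in wild type and from 29.1 to 38.3 CPM in null.

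The summed level of both genes was 34.4 ± 6.39 CPM in wild type against 35.6 ± 4.16 CPM in null at e11.0, and 31.6 ± 3.17 against 33.1 ± 3.67 CPM at e11.5. When the sum replaced both genes and the whole table was fitted again, an alternative chosen after their near-identity was seen, the log2 difference was 0.06 ± 0.08 at e11.0 (limma adjusted p = 0.620) and 0.06 ± 0.06 at e11.5 (adjusted p = 0.543). AK157302 made up 13.5% to 15.2% of the sum in wild type libraries at e11.0 and 12.9% to 15.2% at e11.5. In the CD1 libraries, where AK157302 is not listed, Isca1 held 32.2 ± 5.53 CPM (forelimb) and 32.0 ± 5.07 CPM (hindlimb).

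Kif27, the kinesin, was lower in null by a like amount at both stages. At e11.0 it stood at 7.76, 6.90 and 6.88 CPM in wild type against 2.82, 2.12 and 2.49 CPM in null. At e11.5 it stood at 8.05, 7.20 and 7.34 CPM in wild type against 2.81, 2.54 and 2.35 CPM in null. Wild type libraries were thus all above 6.8 CPM and null libraries all below 2.9 CPM. The null means were 34.5% and 34.1% of wild type, and the log2 differences -1.24 ± 0.12 and -1.26 ± 0.09. No 50-base stretch of its transcripts occurs in another gene.

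Cap2 was the single gene of the 6 that was higher in null hindlimbs. At e11.0 its level was 5.96, 5.12 and 4.39 CPM in wild type against 9.40, 10.45 and 6.64 CPM in null. At e11.5 it was 8.89, 9.05 and 9.41 CPM in wild type against 12.4, 15.1 and 13.7 CPM in null. The groups did not overlap at either stage, and null replicate 3 was the nearest to wild type at e11.0. The null mean was 1.71 times the wild type mean at e11.0 and 1.504 times at e11.5, with log2 differences of 0.66 ± 0.11 and 0.54 ± 0.09. The muscle precursor markers, given above, were lower in the same libraries.

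Among all genes, groups that did not overlap with null lower were found for 13.7% at e11.0 and 11% at e11.5, and with null higher for 4.78% and 5.48%. The share of all genes past the threshold (limma, adjusted p under 0.05) was 13.1% at e11.0 and 10.8% at e11.5. It moved with single libraries, from 116 genes without wild type replicate 1 to 5273 without wild type replicate 2 at e11.0, around 1843, and from 433 without null replicate 2 to 2627 without null replicate 1 at e11.5, around 1455. The 6 genes were chosen on these contrasts, so nothing is read from their own count. Without the term for the run, 5 genes were called at e11.0 and 11 at e11.5, and the calls given here for Isca1, Zfp729a, Zfp934, Zkscan8, Rbm24, Ercc6l2, Uimc1, Golm1, Dapk1 and the partner genes were lost.

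**Figure D2:**
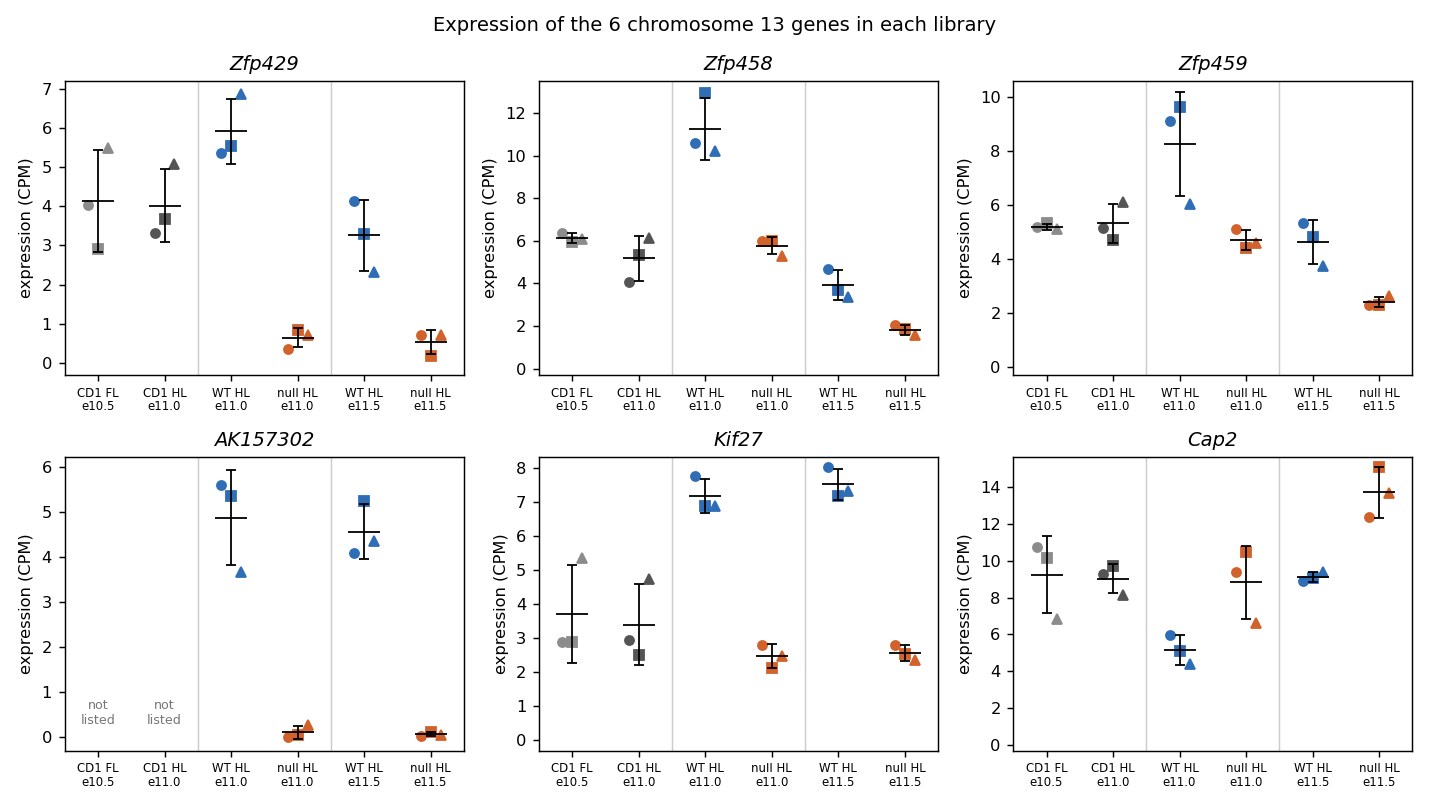
Expression in CPM (vertical axis, linear from 0) of each of the 6 genes in the 3 libraries of each group, circles for replicate 1, squares for 2 and triangles for 3, with the mean and SD as black bars. Vertical grey lines part the 3 tables, which were normalized separately. Null libraries (orange) lie apart from wild type (blue) in every panel, and CD1 forelimb and hindlimb (grey) overlap in the 5 panels that have them.

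The CD1 comparison played no part in the choice of the genes and could be tested. None of the 5 genes listed there was called between hindlimb at e11.0 and forelimb at e10.5, where 5.87% of all genes were, and in each of the 5 the groups overlapped, against 11.2% of all genes without overlap. Limb type and age differ together in this comparison. Zfp458 had the largest difference, with forelimb at 6.14 ± 0.22 CPM and hindlimb at 5.17 ± 1.05 CPM (log2 difference -0.22 ± 0.12, limma adjusted p = 0.296). Zfp429 held 4.14 ± 1.30 and 4.02 ± 0.93 CPM (-0.02 ± 0.12, adjusted p = 0.937) and Zfp459 5.18 ± 0.11 and 5.31 ± 0.72 CPM (0.02 ± 0.10, adjusted p = 0.913). Kif27 held 3.72 ± 1.43 and 3.40 ± 1.18 CPM (-0.09 ± 0.10, adjusted p = 0.620) and Cap2 9.25 ± 2.09 and 9.03 ± 0.80 CPM (-0.01 ± 0.09, adjusted p = 0.952). The same libraries differed in Pitx1, with forelimb at 0.352 ± 0.10 CPM and hindlimb at 209 ± 22.5 CPM (log2 difference 7.28 ± 0.07, adjusted p = 9.83e-12). A p that misses the threshold does not show equal levels, and these 6 libraries left standard errors near 0.1 on the log2 scale.

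For Zfp458, Kif27 and Cap2, the range in wild type CD1 hindlimb at e11.0 overlapped the range in null and not that in wild type BALB/c hindlimb of the same stage. Levels in separate tables were normalized separately, strain and table differ together, and no test was made. The share of all genes that stand this way was not counted, so nothing is read from how many of these genes do. Zfp458 in CD1 hindlimb lay between 4.05 and 6.14 CPM, a range that holds all 3 null values (5.30 to 6.01) and no wild type value (10.2 to 12.9). Kif27 in CD1 hindlimb lay between 2.52 and 4.75 CPM, overlapping the null range of 2.12 to 2.82 and not the wild type range of 6.88 to 7.76. Cap2 lay between 8.14 and 9.69 CPM, within the null range of 6.64 to 10.45 and above the wild type range of 4.39 to 5.96.

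The other 2 genes listed in the CD1 table stood differently. Zfp459 in CD1 hindlimb lay between 4.69 and 6.11 CPM and overlapped both the null range of 4.39 to 5.10 and, by its highest library, the wild type range of 6.04 to 9.61. Zfp429 in CD1 hindlimb, between 3.31 and 5.07 CPM, was above all null values (up to 0.838) and below all wild type values (from 5.35). Pitx1 was 183 to 223 CPM in CD1 hindlimb and 114 to 136 CPM in wild type BALB/c hindlimb.

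The order of all groups sets levels from separately normalized tables side by side and was not tested. Strain differs with the CD1 table, and stage and library type with the e11.5 table. Across all groups, Kif27 ranked highest in wild type BALB/c hindlimb at e11.5 and at e11.0, whose ranges overlapped, then in CD1 forelimb and hindlimb, which overlapped, and last in the null groups, which overlapped CD1 hindlimb or each other. Zfp429 ran from wild type at e11.0 over the CD1 groups to wild type at e11.5, each overlapping the next, with both null groups apart at the bottom. Zfp459 ran from wild type at e11.0 through 4 more groups with overlapping ranges to null at e11.5, which stood apart. Zfp458 ranked highest in wild type at e11.0, with no overlap to the next group, and lowest in null at e11.5, again with no overlap. Cap2 ranked highest in null at e11.5, at 13.7 ± 1.37 CPM, and lowest in wild type at e11.0, at 5.16 ± 0.79 CPM. The groups between these, including wild type at e11.5, overlapped their neighbours in the order. Per kilobase of annotated exon, the wild type levels at e11.0 were 2.54 for Zfp429, 2.53 for AK157302, 2.25 for Zfp459, 1.39 for Zfp458, 1.38 for Kif27 and 1.24 for Cap2 in CPM per kb, so Zfp458 was not above Zfp429 once length was counted.

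**Figure D3:**
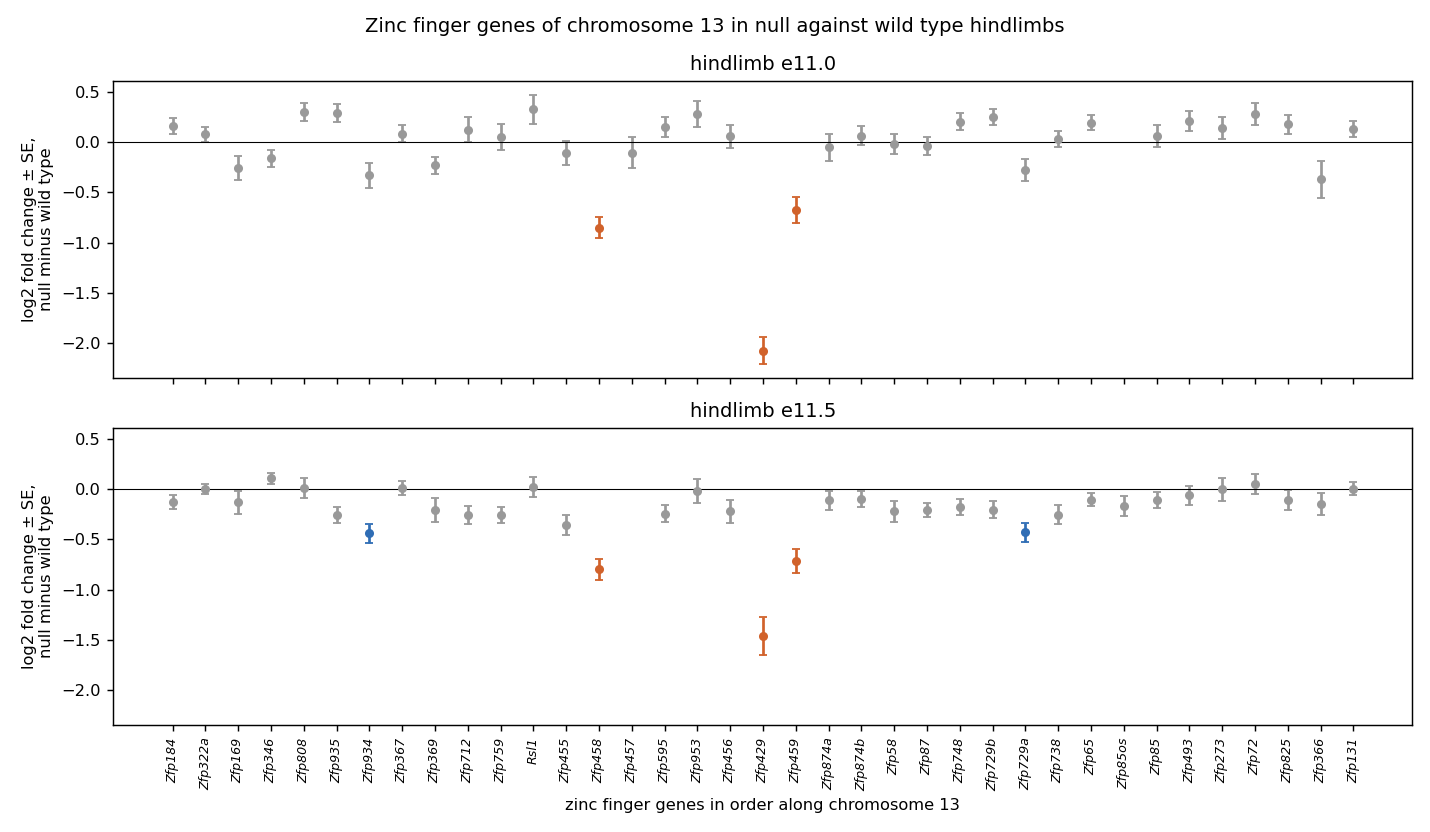
Log2 difference of null minus wild type, with SE, for zinc finger genes of chromosome 13 in their order along the chromosome, at e11.0 and e11.5. Zfp458, Zfp429 and Zfp459 are in orange, other genes past the threshold in blue and the rest in grey. The 3 orange genes lie at -0.68 or lower, among neighbours between -0.37 and 0.33 at e11.0 and between -0.44 and 0.11 at e11.5.

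By limma, most zinc finger genes around the 3 were not called. At e11.0 none of the other 33 listed zinc finger genes of chromosome 13 (symbol Zfp, or Rsl1) was called by limma, in a table where 13.1% of all genes were (8.41% lower, 4.73% higher), and 8.36% of the 323 zinc finger genes on other chromosomes. The median log2 difference of the other 33 was 0.08, against -0.07 over all genes. The absence of calls among them rests on the fit: other scalings of the table called 4 or 5 zinc finger genes of the chromosome higher, the replicate block 3, and the fit without wild type replicate 2 called 12. In the authors' deposited table, 9 of the chromosome's zinc finger genes were higher by adjusted p. Zfp457 is listed at e11.0 only and Zfp85os at e11.5 only, so the 33 are not all the same genes at both stages. Zfp85os, taken in by its symbol, lies on the strand opposite to Zfp85. At e11.5, 2 of the other 33 were called, both lower, against 10.8% of all genes (7.96% lower, 2.83% higher) and 3.99% of 326 zinc finger genes elsewhere. Of the 33, 26 had a negative estimate, with a median of -0.13, and of the 20 among them at 67 to 68 Mb 19 did, with a median of -0.19, against -0.02 over all genes. Zinc finger genes on other chromosomes leaned the same way at e11.5, with 254 of 326 estimates negative and a median of -0.07. In the same window, 6 of 20 were negative at e11.0, and 18 of 19 in CD1 hindlimb against forelimb. The genes called at e11.5 were Zfp729a (20.4 to 15.1 CPM, log2 difference -0.43 ± 0.09, adjusted p = 0.0219) and Zfp934 (4.56 to 3.14 CPM, -0.44 ± 0.10, adjusted p = 0.0250). Each lost its call in 4 of 6 fits without 1 library. At e11.0 they stood at -0.28 ± 0.11 (adjusted p = 0.0960) and -0.33 ± 0.13 (adjusted p = 0.0951). The count of zinc finger genes called lower includes Zfp429, Zfp458 and Zfp459, which were chosen on these contrasts, so nothing is read from their part. This count was 3 at e11.0 and 5 without wild type replicate 2. At e11.5 it was 5 and ran from 2 without null replicate 2, over 3 without wild type or null replicate 3, to 11 without null replicate 1. In CD1 embryos 0 of 35 were called.

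The nearest neighbours show this most closely. Between Zfp458 and Zfp429 lie Zfp457, Zfp595, Zfp953 and Zfp456. Zfp456, at 12.1 kb from Zfp429 and one of its close copies, held 4.39 CPM in wild type against 4.61 CPM in null at e11.0 (0.06 ± 0.11, adjusted p = 0.740) and 2.05 against 1.61 CPM at e11.5 (-0.22 ± 0.11, adjusted p = 0.229). Zfp874a, 3.13 kb beyond Zfp459, held 7.78 against 7.35 CPM (-0.05 ± 0.13, adjusted p = 0.816) and 4.18 against 3.84 CPM (-0.11 ± 0.10, adjusted p = 0.469). Rsl1, which shares the stretch shown above with Zfp429, held 4.76 against 6.32 CPM at e11.0 (0.33 ± 0.15, adjusted p = 0.135) and 2.75 against 2.84 CPM at e11.5 (0.02 ± 0.10, adjusted p = 0.913). Neither Zfp456 nor Rsl1 passed the threshold in either direction.

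Most neighbours of Kif27, AK157302 and Cap2 were not called either. Gkap1 and 2210016F16Rik on the sides of Kif27 had e11.0 log2 differences of 0.05 and 0.10, then -0.27 and 0.01 at e11.5, and none was called (the lowest adjusted p was 0.0654, for Gkap1 at e11.5). Next to AK157302, Zkscan4 was not called, and Zkscan8, a zinc finger gene, was called at e11.5 only (70.1 to 58.5 CPM, -0.26 ± 0.07, adjusted p = 0.0456), not at e11.0 (-0.12 ± 0.08, adjusted p = 0.257). The call at e11.5 was lost with either other scaling and in 4 of 6 fits without 1 library. Fam8a1, on one side of Cap2, was not called. Rbm24, on the other at 70.8 kb, an RNA-binding protein of muscle, was lower: 1.18 ± 0.03 to 0.549 ± 0.03 CPM at e11.0 (-0.49 ± 0.12, adjusted p = 0.0326) and 6.002 ± 1.53 to 1.92 ± 0.95 CPM at e11.5 (-1.29 ± 0.14, adjusted p = 0.00123). Cap2 and its neighbour thus differed in opposite directions. The e11.0 call of Rbm24 was lost in 5 of 6 fits without 1 library.

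**Figure D4:**
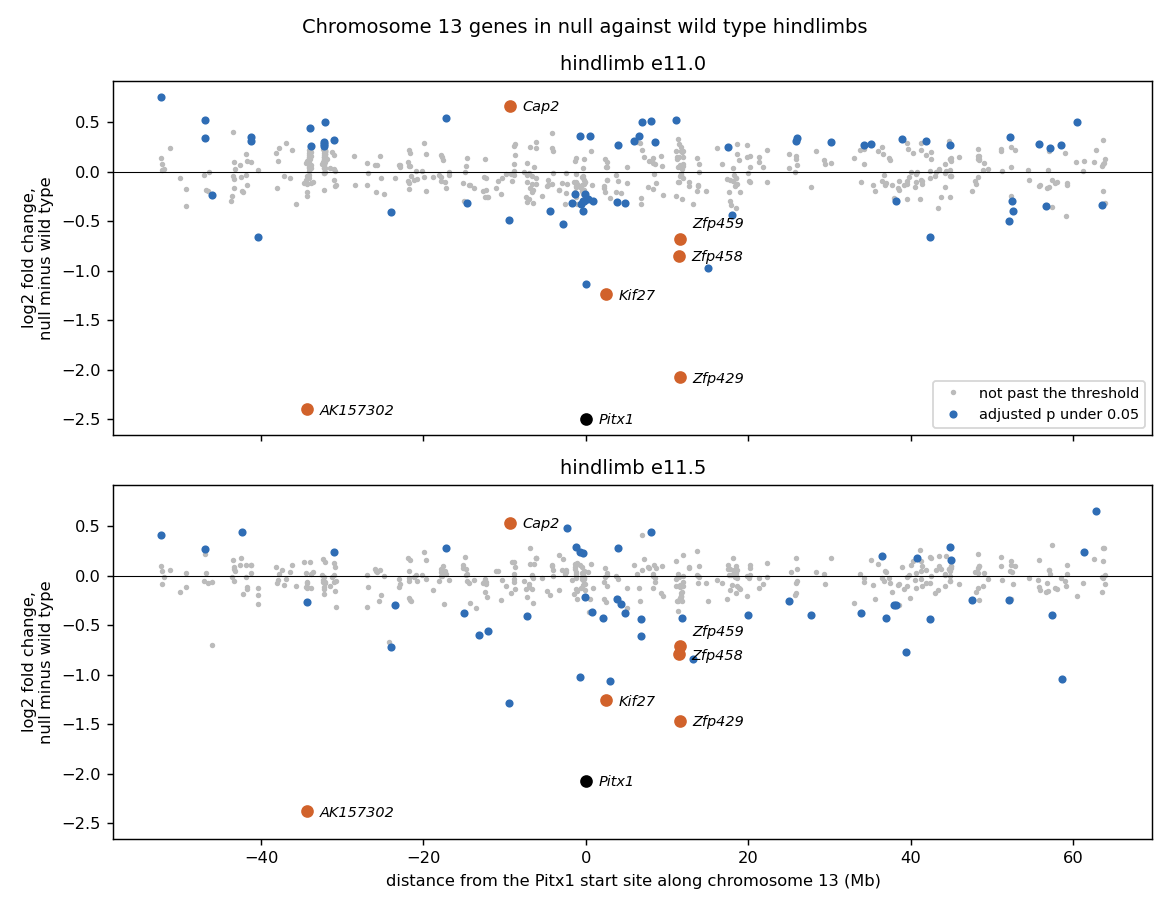
Log2 difference of null minus wild type for every listed gene of chromosome 13, against the distance of its start from that of Pitx1 in Mb, at e11.0 (upper) and e11.5 (lower). Orange points are the 6 genes, the black point is Pitx1, blue points passed the threshold and grey points did not. Kif27 and the 3 zinc finger genes lie on the right of Pitx1, Cap2 9.33 Mb on the left and AK157302 34.3 Mb on the left.

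Along the whole chromosome the share of called genes was close to that elsewhere, 12.8% of 553 genes at e11.0 against 13.2% on other chromosomes and 11.6% of 491 at e11.5 against 10.8%. Within 5 Mb of Pitx1 it was 25% of 76 genes at e11.0 and 20% of 75 at e11.5. With Kif27 and Pitx1 left out it was 23% of 74 (95% Wilson interval 14.9% to 33.7%) and 17.8% of 73 (10.7% to 28.1%). These intervals treat the genes as independent, although they come from the same libraries, and are no test. Gm28760, at the Pitx1 start, is among the 74. Between 5 and 15 Mb, where Cap2 and the 3 zinc finger genes lie, the share was 7.21% of the 111 other genes at e11.0 and 9.17% of 109 at e11.5. These shares follow the calls and moved with single libraries: within 15 Mb, the share of 16.2% at e11.0 ran from 3.14% without wild type replicate 1 to 37.7% without wild type replicate 2, and the share of 15.4% at e11.5 from 7.45% without null replicate 2 to 22.3% without null replicate 1.

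Large differences were counted separately. Genes called with an absolute log2 difference of at least 1 numbered 40 at e11.0, 0.285% of those tested, of which 5 lie on chromosome 13. Kif27, Zfp429, AK157302, Pitx1 and Gm28760, at the Pitx1 start, were these 5. At e11.5 there were 56, or 0.415%, of which 8 lie on chromosome 13, the same 3 genes of the 6 with Pitx1, Rbm24, Fgfr4, Fst and Ntrk2. Kif27, Zfp429 and AK157302 were chosen for these differences, so nothing is read from the counts that hold them. Gm28760, Fgfr4, Fst and Ntrk2 were named after their values were seen. With the 6 genes and Pitx1 left out, the share on chromosome 13 was 0.183% at e11.0 and 0.826% at e11.5, against 0.26% and 0.37% on other chromosomes.

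Of 12935 genes listed in both null tables, 464 (3.59%) were called in both with the same sign. On chromosome 13 it was 22 of 469 (4.69%), a count that holds the 6 chosen genes and Pitx1. With these left out, 15 remained. Both comparisons have their own control libraries. Genes called in both within 15 Mb of Pitx1 that were neither among the 6 nor zinc finger genes numbered 6. They were Rbm24 and Isca1, described above, and Ercc6l2, Uimc1, Golm1 and Dapk1. Ercc6l2, a helicase-like DNA repair protein, rose from 35.1 ± 3.61 to 50.4 ± 5.69 CPM at e11.0 (0.51 ± 0.08, adjusted p = 0.00536) and from 38.0 ± 5.11 to 51.9 ± 8.15 CPM at e11.5 (0.44 ± 0.06, adjusted p = 0.00249). It was called in all 6 fits without 1 library at both stages. Uimc1, a ubiquitin-binding DNA damage protein, was called higher (0.36 and 0.24). Golm1, of the Golgi membrane, and Dapk1, a death-associated kinase, were called lower (-0.31 and -0.24, -0.32 and -0.38). In CD1 hindlimb against forelimb, Golm1 was higher (0.22 ± 0.05, adjusted p = 0.0220) and Rbm24 lower (-0.61 ± 0.13, adjusted p = 0.0193). The CD1 call of Golm1 was lost in 5 of 6 fits without 1 library, with the replicate block (adjusted p = 0.05002) and with replicates 1 and 2 alone, and that of Rbm24 in 3 of 6. Both were lost without the run term. The e11.0 calls of Uimc1, Golm1 and Dapk1 were lost in 5, 4 and 5 of the 6 fits without 1 library, and the e11.5 calls of Uimc1 and Golm1 in 6 and 3. The e11.0 call of Dapk1 was also lost under both other scalings, and that of Golm1 under the median-ratio scaling.

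The known partners of the 6 proteins were followed through lists. Of 14 corepressor genes of KRAB proteins, 3 were called lower at e11.0 (Atf7ip, Chd3 and Cbx5) and 0 at e11.5. Both other scalings called 2 of the list higher and 0 lower at e11.0, so no direction holds, and the replicate block called 2 higher and 6 lower. Trim28 itself stood at 920 ± 109 and 768 ± 32.7 CPM at e11.0 (-0.25 ± 0.08, limma adjusted p = 0.0664, called with the replicate block) and Setdb1 at 137 ± 2.85 and 122 ± 2.22 CPM (-0.17 ± 0.06, adjusted p = 0.0913). At e11.5 their log2 differences were 0.09 ± 0.05 and 0.02 ± 0.05, with adjusted p = 0.237 and 0.836. The list median at e11.0 was -0.11, against -0.07 over all genes.

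Of 15 listed Hedgehog and cilium partners of Kif27, 4 were called lower at e11.0 (Gli3, Stk36, Sufu and Kif7), against 8.41% of all genes called lower, and the list median was -0.15 against -0.07 over all genes. The count was 6 with the replicate block, 2 under either other scaling and 0 to 8 without 1 library. At e11.5 none of the list was called lower. Stk36, the Fused kinase that works with Kif27 in motile cilia, stood at 9.65 ± 0.93 and 6.55 ± 0.27 CPM at e11.0 (-0.49 ± 0.10, adjusted p = 0.0195) and 19.8 ± 4.79 and 16.7 ± 3.58 CPM at e11.5 (-0.22 ± 0.06, adjusted p = 0.0546). Kif7, the closest paralog, stood at 32.3 ± 5.99 and 26.6 ± 4.61 CPM at e11.0 (-0.27 ± 0.08, adjusted p = 0.0460) and 42.7 ± 5.59 and 42.6 ± 5.51 CPM at e11.5 (0.00 on the log2 scale, adjusted p = 0.967). The calls of Kif7 and Sufu were lost under both other scalings.

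Of 17 actin genes that work with Cap2, Cfl2, a muscle cofilin, was called higher and Limk1, a kinase of cofilin, lower at e11.0 (lost under both other scalings), and Acta2, smooth muscle actin, lower at e11.5. With the replicate block 4 of the list were called lower at e11.0 and without wild type replicate 2, 10 were. Cap1, the broadly expressed paralog, stood at 152 ± 8.97 and 130 ± 2.13 CPM at e11.0 (-0.22 ± 0.07, adjusted p = 0.0548, called with the replicate block) and 219 ± 6.75 and 229 ± 10.8 CPM at e11.5 (0.06 ± 0.04, adjusted p = 0.342). No gene of the 3 partner lists was called in both null comparisons. The calls at e11.0 in these lists were lost in at least 3 of 6 fits without 1 library.

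Over the 12 BALB/c hindlimb libraries, with the mean of each table and run taken off, the genes whose pattern was most like each of the 6 were these, by Pearson r as a description. The points share libraries and the genotype difference on which the 6 genes were chosen. Kif27 was closest to Pitx1 (0.99), then to Gm35082 (-0.99) and Abca8b (0.99). AK157302 was closest to Pitx1 (0.99), Acad11 (0.99) and Dmrta1 (0.99). Zfp429 was closest to Gnal (0.99), Fam129a (-0.98) and Casd1 (0.98), and Zfp458 to Mxra8, Gnal and Casd1 (0.99, 0.99 and 0.98). Zfp459 was closest to Cox6b2 (0.97) and Ppic (-0.96), and Cap2 to Gm35082 (0.98), Zfp28 (-0.98) and Hykk (-0.98). Apart from Pitx1, none of these lies on chromosome 13.

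Promoter windows of 5 of the 6 genes could be read from RefSeq (GRCm38.p6, 250 bases before to 50 after the RefSeq start). For Kif27 (chr13:58354898-58355197) and Zfp458 (chr13:67268945-67269244) the window lies inside the gene span given above, away from its start. The motif TAATCC, which PITX proteins recognise, searched on both strands, was in 0 of the 5. It occurs in 7.06% of 32851 promoters of the same length and in 5.41% of those of listed genes. The absence says only that these letters are not in these windows, and the starts of Kif27 and Zfp458 used above were not searched.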

How the data were processed

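The 6 genes and all lists were chosen with earlier results of these data known. Per the submitters' processing notes, reads were handled with STAR, featureCounts and edgeR on GRCm38 (mm10), with versions and settings not stated in the sources used here. The authors deposited 3 tables, 1 per comparison, with expression as CPM per library, normalized separately, and listed genes exceed 0.5 CPM in at least 3 libraries. Per the file headers, the authors also deposited a log2 fold change, an average log2 CPM, a likelihood-ratio score, a p-value and an adjusted p-value. No column of sample values was left unused (0). Symbols and coordinates came from GENCODE release M 21, matched by gene identifier for 13513 of 13540, 13998 of 14027 and 13457 of 13478 genes.

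On the log2(CPM + 1) values of a single table, limma 3.58.1 (R 4.3.3, limma-trend) fitted group and run, which leaves 3 residual degrees of freedom. The run term set run 3982 (replicates 1 and 2) against replicate 3, which has no run label in CD1. Two-sided p-values were adjusted by Benjamini-Hochberg over the whole table, with 0.05 as the threshold, and the fit was tested on simulated data. Values were whole multiples of 1 read within 0.05 read, which gave 17.4 to 53.6 M reads (M, mega) per library on listed genes, and 1 read was worth at most 0.0575 CPM. The count test planned for counts was not used because the tables hold CPM. No molecular identifiers were used, so reads are not independent molecules, and read numbers cover counting error only. The Wilson intervals concern numbers of called genes, taken as independent, and not the spread between libraries.

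Replicate numbers paired the libraries by their deviations from group means: r across genes was 0.69, 0.80 and 0.94 for CD1 replicates 1, 2 and 3, then 0.66, 0.64 and 0.86 for e11.0, and 0.73, 0.83 and 0.91 for e11.5. This also reflects the shared run, so a replicate block was fitted as an alternative.

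Named genes were the 6 genes, Pitx1, zinc finger genes of chromosome 13 called in a null comparison, up to 10 called in both within 15 Mb of Pitx1, Kif7, Stk36, Cap1, Trim28, Setdb1, list genes called in both, and the 3 genes most alike to each of the 6. Neighbours, close copies and called list genes were named in addition, after their values were seen. A few genes that the rule names are not reported here. Transcripts were aligned with Biopython 1.88. Alternatives were another pseudocount (0.25 CPM), a filter at a mean of 1 CPM, other scalings, the block, no run term, replicates 1 and 2 alone, each library left out and the authors' deposited calls.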

Additional observations from a re-analysis of the deposited data

How the results depend on the processing

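Counts of called genes (795 in CD1, 1843 at e11.0, 1455 at e11.5) depended on the run term, without which 13, 5 and 11 genes were called, together with 0, 1 and 0 zinc finger genes of chromosome 13 lower, 2 of the 6 genes at either null stage, and 0.543%, 1.05% and 1.06% of genes within 15 Mb of Pitx1. The 6 genes were chosen on the null contrasts, so calls among them, here and below, are no test. Replicates 1 and 2 alone called 471, 199 and 483 genes, 4.19% and 9.57% within 15 Mb at e11.0 and e11.5, and 3 zinc finger genes at e11.5. The replicate block called 3442 genes at e11.0 (1056 higher, 2386 lower) and 25.1% within 15 Mb. In it Trim28, Cap1 and Zfp729a were also called lower at e11.0, and Golm1 lost its call in CD1. Its counts for gene lists stand in the report where they moved by over 1.5 times. By the authors' deposited adjusted p, 1689, 2895 and 2644 genes were called, 14.7%, 23.6% and 23.9% within 15 Mb, and 1 zinc finger gene in CD1.

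With 1 library left out, called genes ranged from 394 to 1191 in CD1, 116 to 5273 at e11.0 and 433 to 2627 at e11.5, zinc finger genes lower from 2 to 5 at e11.0 and 2 to 11 at e11.5, and shares within 15 Mb from 4.35% to 9.78%, 3.14% to 37.7% and 7.45% to 22.3%. Calls among the 6 genes, which their choice favours, ran from 4 to 6 at e11.0 and 5 to 6 at e11.5, and nothing is read from those that held. Zfp459 was not called without wild type replicate 1 or null replicate 2 at e11.0 nor without null replicate 2 at e11.5. Cap2 was not called without wild type replicate 1 at e11.0. In each such fit the arm left with fewer libraries is assumed to vary like the other.

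Other scalings turned the split of calls at e11.0 from 664 higher and 1179 lower to 1064 and 524 (trimmed mean) or 1326 and 403 (median ratio), and at e11.5 from 382 and 1073 to 691 and 917 or 743 and 919. The 6 genes kept their side of 0 in the null comparisons under each other setting, a direction that their choice fixes. With a pseudocount of 0.25 CPM, AK157302 differed by -3.89 and -3.93, Zfp429 by -2.81 and -2.21. The sum of AK157302 and Isca1, most of it Isca1, had log2 differences of 0.0574 at e11.0 and 0.0617 at e11.5. These are values of the sum and not of AK157302.

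In CD1, where no gene of the 5 was called under any alternative, values near 0 changed sign. Without 1 library they ran from -0.128 to 0.041 for Cap2, -0.137 to 0.075 for Zfp429 and -0.0766 to 0.0834 for Zfp459. Sign changes took Cap2 to 0.041, 0.0374 and 0.00311, Zfp429 to 0.0169 (replicates 1 and 2 alone, or without replicate 3 of either group), 0.075 and 0.00148, and Zfp459 to -0.0766. Of 34 levels per kilobase, 12 moved by more than 1 SD when the longest transcript set the length. The edgeR quasi-likelihood test on recovered reads was not run: a stricter test, which finds the worth of 1 read from each column alone, failed in most columns. The implied reads served only to describe depth and how few reads low levels rest on, including the library with 0 reads. Null levels of AK157302 and Zfp429 rest on few reads. The causes were not tested.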
